A study of Mus musculus with 10 samples.

Results

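Ribosome biogenesis was followed through 40 genes in mouse dorsal root ganglia, the clusters of sensory neurons and glia beside the spinal cord. The genes were chosen by name for their known roles, with earlier results of these data known. They were 5 subunits of RNA polymerase I, 6 of its initiation factors and 4 abundant nucleolar proteins. With them were 7 core proteins of small nucleolar ribonucleoproteins (snoRNPs), 10 assembly factors of the small ribosomal subunit and 8 of the large one. All 40 were among the 40481 distinct genes of the count table and among the 18401 with enough counts to be tested. The study compared 5 RNA sequencing libraries from C57BL/6 mice given oxaliplatin with 5 from C57BL/6 mice given vehicle. Oxaliplatin is a platinum drug against cancer that injures sensory nerves. The labels give 10 mg/kg oxaliplatin, and the design text gives 8 weeks of treatment. No genetic change is named for either group, and the sources used here do not give the animals' age or the dosing schedule. Libraries were made from RNA of whole ganglia that passed the study's integrity threshold of larger than 8. The labels number the libraries but do not say that each came from another animal, and a p-value here speaks of the spread among these libraries, which may be partly technical.

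RNA polymerase I transcribes one long precursor RNA from the repeated ribosomal DNA in the nucleolus. That precursor is modified at sites picked by small nucleolar RNAs, trimmed, folded and joined with ribosomal proteins by a large set of assembly factors. Oxaliplatin is known to disturb the nucleolus in cultured cells, and neurons have prominent nucleoli. The counts give messenger RNA levels of the genes that code for this machinery. They do not measure ribosomal RNA synthesis or the number of ribosomes.

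Library totals ran from 52963470 to 60984426 counts, and the biological coefficient of variation was 19.3%. Sensory neuron markers, the label of the tissue, summed to 24982 to 29439 CPM (counts scaled for library size and composition) after oxaliplatin and to 29158 to 33351 after vehicle, with 4 of 20 lower by the edgeR test (Nefl, Nefm, Nefh and P2rx3). Markers of myelinating Schwann cells summed to 8445 to 11436 and 7721 to 10494 CPM (1 of 10 higher), and those of satellite glia to 4169 to 5465 and 4726 to 6514 CPM (1 of 8 higher, 1 lower). Macrophage, fibroblast and endothelial marker sums were 96.6 to 130.3, 899 to 1134 and 76.5 to 84.8 CPM after oxaliplatin, and 84.6 to 148, 764 to 989 and 54.2 to 78.2 CPM after vehicle (1 of 12 macrophage markers lower, 1 of 7 fibroblast and 2 of 7 endothelial markers higher). Fat markers summed to 16.6 to 688 CPM after oxaliplatin and 8.27 to 34.4 after vehicle, with all 5 tested above 0 (median log2 fold change 2.49). Muscle markers summed to 10.7 to 722 and 98.1 to 488 CPM, with all 6 below 0 (median -0.90), and no fat or muscle marker passed the threshold. Markers of dividing cells summed to 28.5 to 43.6 CPM after oxaliplatin and 25.6 to 28.4 after vehicle (3 of 14 higher), and RNAs kept in the nucleus to 8944 to 11435 and 7868 to 8809 CPM (2 of 8 higher). By the same test 234 of all 18401 tested genes (1.27%) were higher and 142 lower. Below 0 were 14 of 20 neuron markers (median log2 fold change -0.08). Above 0 were 8 of 10 Schwann cell markers (0.24), 6 of 7 endothelial (0.20) and 12 of 14 dividing cell markers (0.58). Of the nuclear RNAs 7 of 8 lay above 0 (0.23). Medians were -0.06 for satellite glia and -0.05 for both macrophage and fibroblast markers. The part of cell makeup and RNA quality in the results that follow was not tested. In whole tissue, fewer cells of a type and less RNA per cell cannot be told apart.

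No member passed the threshold of an adjusted p below 0.05 in either direction: 0 of 40 were called by the edgeR quasi-likelihood test with Benjamini-Hochberg adjustment over all genes. Over the 18401 genes tested the same rule called 376 (2.04%), of which 234 (1.27%) were higher after oxaliplatin and 142 lower. At an unadjusted p below 0.05 there were 5 members, Nop10, Nop58, Nop16, Polr1c and Nhp2, beside 3002 genes in all (16.3%). All 5 were lower after oxaliplatin, beside 1436 lower genes (7.80%) and 1566 higher ones (8.51%). Groups without overlap were found for 0 of 40 members, beside 739 of all tested genes (4.02%). DESeq2, run on the same counts, called Nop10 and Nop58 lower (adjusted p = 0.0282 for both), where it called 406 of 16940 genes (2.40%) lower and 927 (5.47%) in either direction.

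The fold changes were small. The median log2 fold change (oxaliplatin over vehicle) of the members was -0.03, beside 0.0051 for all tested genes, and the median of its absolute value was 0.057 beside 0.136. Below 0 were 27 of 40 members (67.5%), beside 49.0% of all tested genes. Without the correction for library composition 19 of 40 lay below 0 and the members' median was 0.0037, where the median of all genes was 0.039. Over the 19 alternatives run, 23 members kept their sign throughout. The plot of fold changes by role shows how narrowly most members were measured. For 31 of 40 the 95% interval of the fold change lay within 1.25-fold in either direction (32.6% of all tested genes), and for 39 of 40 within 1.5-fold (61.6%). Gar1, a core protein of H/ACA snoRNPs, was the exception, with an interval from 0.757-fold to 1.77-fold. These intervals are per gene and are not adjusted for the number of genes. Members and all tested genes were not compared at like count levels, for the intervals or for the size of the fold changes.

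**Figure D1:**
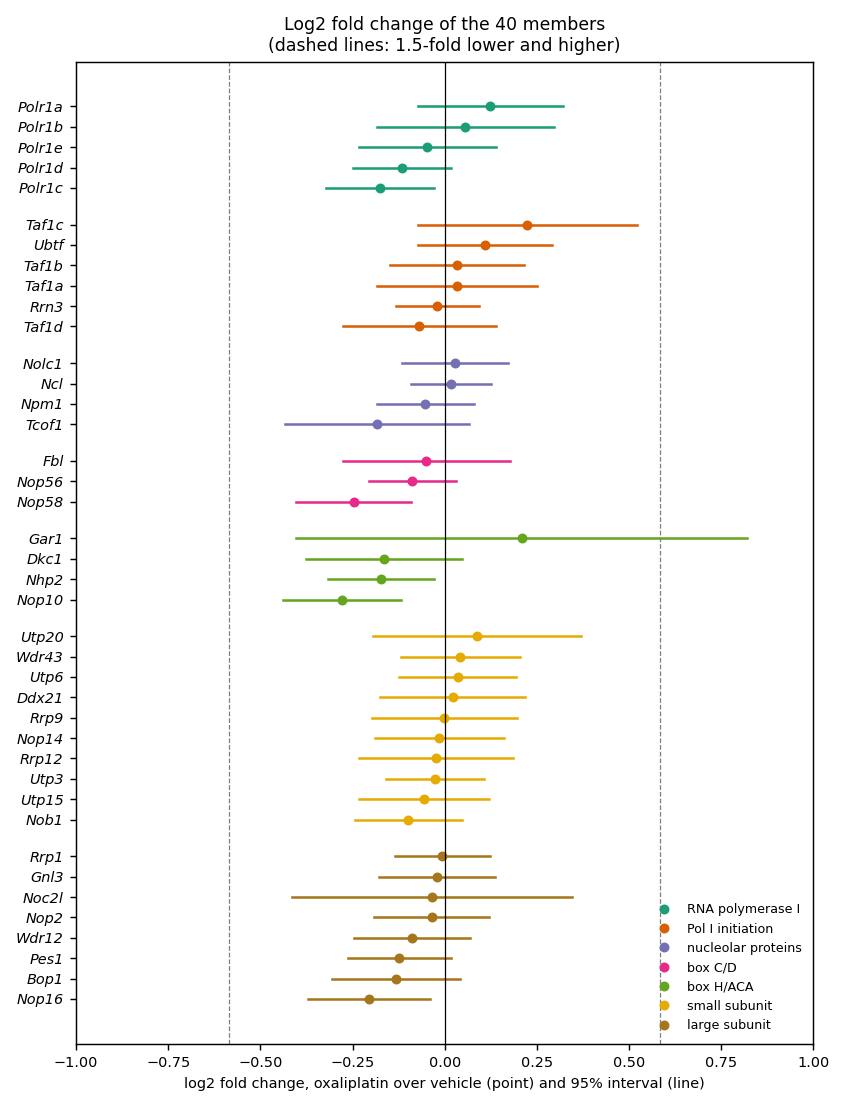
Log2 fold change of each of the 40 members (point) with its 95% interval (line), on the x axis, grouped and coloured by role. All points lie between -0.28 (Nop10) and 0.22 (Taf1c), and Gar1 alone reaches past the dashed lines at 1.5-fold.

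Taken by library, the mean log2 CPM over the 40 members ran from 5.06 to 5.16 after oxaliplatin and from 5.08 to 5.17 after vehicle, and the groups overlapped. Together the members took 0.223 to 0.236% of all counts after oxaliplatin and 0.230 to 0.242% after vehicle. Members varied less between libraries of a group than most genes did: the pooled standard deviation of log2 CPM had a median of 0.114 over members and 0.213 over all tested genes. All tested genes include ones with far fewer counts, and genes of like count level were not compared. The steadiest was Ncl, at 0.051, and the most variable Gar1, at 0.55, followed by Noc2l, at 0.32. Over all members, counts ran from 117 to 16485 per library.

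**Figure D2:**
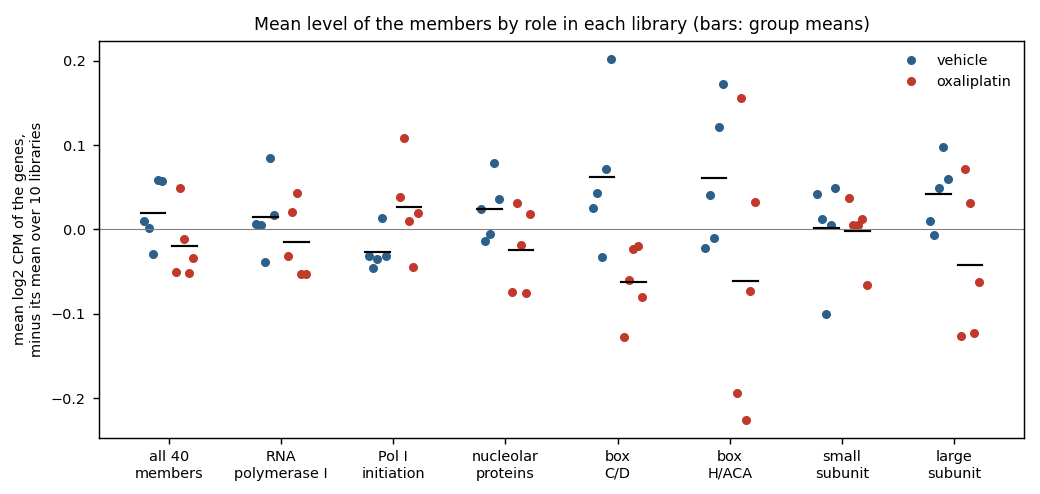
Mean log2 CPM of all 40 members and of each role group in each library, minus its mean over the 10 libraries (y axis), with points for the 5 vehicle and 5 oxaliplatin libraries and bars for group means. The groups overlap for each role, and the box C/D and H/ACA groups have the widest gaps between group means (-0.12 for both).

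RNA polymerase I itself was measured through 5 of its subunits. Polr1a and Polr1b code for the large catalytic subunits and Polr1e for a subunit of the polymerase's own peripheral pair. Their log2 fold changes were 0.12 ± 0.093 (SE), 0.06 ± 0.11 and -0.05 ± 0.088. Polr1c and Polr1d code for a pair of subunits that RNA polymerase III uses too, and both had lower means after oxaliplatin without passing the threshold. Polr1c was at 43.8, 48.2, 48.0, 43.0 and 45.3 CPM in oxaliplatin replicates 1 to 5 and at 45.7, 53.1, 55.6, 51.4 and 52.0 CPM in vehicle replicates 1 to 5. Vehicle replicate 1 lay inside the oxaliplatin range and the other 4 vehicle libraries above it. That is a log2 fold change of -0.18 ± 0.069 (edgeR adjusted p = 0.211). Polr1d was at 58.4, 62.5, 63.5, 62.4 and 58.5 CPM after oxaliplatin and at 60.2, 65.2, 70.1, 66.1 and 69.2 CPM after vehicle. Again vehicle replicate 1 was the one that overlapped. Its log2 fold change was -0.12 ± 0.063 (edgeR adjusted p = 0.379).

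The initiation factors had a median log2 fold change of 0.03, with 2 of 6 below 0. Ubtf codes for UBF, which holds active ribosomal DNA open, and had a mean of 43.4 CPM ± 4.62 (SD, n = 5) in oxaliplatin libraries and 40.3 CPM ± 3.62 (SD, n = 5) in vehicle libraries. Rrn3 codes for the factor that brings the polymerase to the promoter and is a target of growth signals. It was at 163 ± 4.63 CPM after oxaliplatin and 165 ± 8.19 CPM after vehicle (log2 fold change -0.02 ± 0.053). Taf1a, Taf1b, Taf1c and Taf1d code for subunits of SL1, the complex that binds the core promoter. Of these Taf1c had the smallest p. It was at 8.22, 8.5, 5.66, 6.56 and 7.63 CPM after oxaliplatin and at 6.24, 5.33, 5.60, 6.38 and 7.73 CPM after vehicle. Oxaliplatin replicates 1 and 2 lay above every vehicle library and the other 3 inside the vehicle range (log2 fold change 0.22 ± 0.14, edgeR adjusted p = 0.463). The other 3 lay between -0.07 (Taf1d) and 0.03 (Taf1a and Taf1b).

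Among the abundant nucleolar proteins, nucleolin and nucleophosmin were close to level. Ncl, which codes for nucleolin, was at 193 ± 5.81 CPM in oxaliplatin libraries and 190.5 ± 7.56 CPM in vehicle libraries (n = 5 each), a log2 fold change of 0.02 ± 0.051. Npm1, which codes for the nucleolar chaperone nucleophosmin, was at -0.05 ± 0.062 and Nolc1, a chaperone of snoRNPs, at 0.03 ± 0.068. Npm1 has processed pseudogenes that could share reads with it, and how the counting split such reads is not given. Tcof1 codes for treacle, a scaffold that links the polymerase to ribosomal DNA. It was at 16.8, 22.3, 15.6, 15.2 and 19.3 CPM after oxaliplatin and at 21.9, 19.4, 16.2, 21.1 and 22.6 CPM after vehicle. The lowest libraries were oxaliplatin replicates 3 and 4, and the ranges overlapped over most of their width (log2 fold change -0.18 ± 0.12, edgeR adjusted p = 0.479).

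Both members with the smallest p values belong to the snoRNPs, which carry the enzymes that modify ribosomal RNA. Core proteins of the box C/D class serve methylation of ribose, and those of the H/ACA class the change of uridine to pseudouridine. The RefSeq sequence just before the start site (150 bases, GRCm38.p6, strand +) is shown for both, since no other member had a smaller p.
Nop10, chr2:112261776-112261925: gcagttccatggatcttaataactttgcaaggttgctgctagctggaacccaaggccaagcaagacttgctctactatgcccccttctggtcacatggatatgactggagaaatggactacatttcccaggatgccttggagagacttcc
Nop58, chr1:59684856-59685005: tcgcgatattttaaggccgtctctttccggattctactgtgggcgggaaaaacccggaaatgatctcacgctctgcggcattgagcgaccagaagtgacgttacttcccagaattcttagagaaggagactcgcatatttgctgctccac
Neither RefSeq window of these genes (250 bases before the start to 50 after it) holds CACGTG, the E-box that MYC and MAX bind, whose occurrence in the members is given further on.

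Nop10 (ENSMUSG00000027133) codes for the smallest core protein of H/ACA snoRNPs, which telomerase also contains. It was at 147, 164, 166, 162 and 155 CPM in oxaliplatin replicates 1 to 5. Vehicle replicates 1 to 5 were at 179, 161, 218, 196 and 211 CPM. Only vehicle replicate 2 lay inside the oxaliplatin range, and the vehicle libraries were the more spread (SD 23.4 CPM, against 7.65 after oxaliplatin). The fold change was 0.824 (log2 fold change -0.28 ± 0.076, 95% interval -0.44 to -0.12, edgeR adjusted p = 0.0671). The call turned on 1 library and on the method. Without vehicle replicate 2 the log2 fold change was -0.34 and the edgeR adjusted p 0.0241 (0.951% of genes were then called lower), and without the filter on low counts the adjusted p was 0.0379 (0.639% called lower). Without both oxaliplatin replicate 1 and vehicle replicate 5 it was 0.247, and over all 19 alternatives it ran from 0.0241 to 0.247.

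Nhp2 codes for a second H/ACA core protein and Dkc1 for dyskerin, the pseudouridine synthase itself. Nhp2 was at 58.9, 62.4, 64.1, 60.6 and 63.4 CPM after oxaliplatin and at 65.4, 61.6, 74.1, 72.0 and 75.5 CPM after vehicle. As for Nop10, vehicle replicate 2 was the library inside the oxaliplatin range, and Nhp2 had a log2 fold change of -0.17 ± 0.068 (edgeR adjusted p = 0.211). Dkc1 was at 34.7, 41.2, 40.3, 30.4 and 29.0 CPM after oxaliplatin and at 35.7, 37.1, 41.1, 43.9 and 39.1 CPM after vehicle. Oxaliplatin replicates 1, 4 and 5 lay below every vehicle library and the other 2 within the vehicle range (log2 fold change -0.16 ± 0.10, edgeR adjusted p = 0.452). Gar1, the fourth core protein, went the other way on average, at 3.14, 5.91, 2.0, 4.44 and 6.23 CPM against 3.65, 4.94, 2.36, 3.66 and 4.19 CPM. Its coefficient of variation was 41.4% after oxaliplatin and 25.1% after vehicle, and its log2 fold change was 0.21 ± 0.28 (edgeR adjusted p = 0.787). The median of the 4 H/ACA genes was -0.17, with 3 of 4 below 0.

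Nop58 (ENSMUSG00000026020) and Nop56 code for the paired scaffold proteins of box C/D snoRNPs, and Fbl for fibrillarin, their methyltransferase. Nop58 was at 31.5, 36.2, 37.3, 35.0 and 31.7 CPM after oxaliplatin and at 42.0, 36.7, 41.9, 41.0 and 42.3 CPM after vehicle. Only oxaliplatin replicate 3 lay above any vehicle library, and the vehicle library it passed was again replicate 2. The fold change was 0.843 (log2 fold change -0.25 ± 0.074, 95% interval -0.40 to -0.09, edgeR adjusted p = 0.101). In limma voom with quality weights the adjusted p was 0.0473 (1.86% of genes called lower), and over all alternatives it ran from 0.0282 to 0.295. Nop56 was at 148, 148, 161, 158 and 147 CPM after oxaliplatin and at 155, 153, 165, 164 and 173 CPM after vehicle. Its ranges overlapped, with oxaliplatin replicates 1, 2 and 5 below every vehicle library (log2 fold change -0.09 ± 0.056, edgeR adjusted p = 0.468). Fbl was at 16.7 ± 0.896 CPM after oxaliplatin and 17.3 ± 2.82 CPM after vehicle (n = 5 each, log2 fold change -0.05 ± 0.11).

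**Figure D3:**
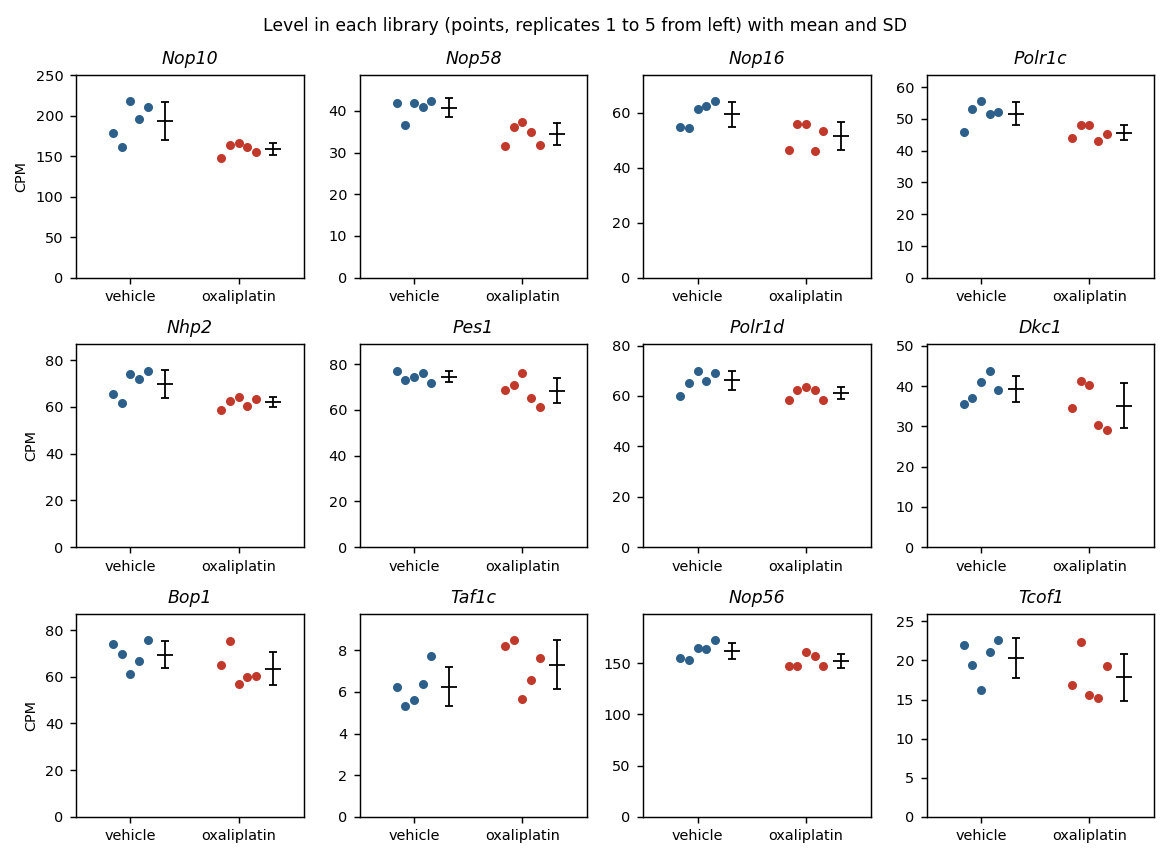
Level in CPM (y axis, from 0) of the 12 members with the smallest p, in each vehicle and oxaliplatin library (points) with group mean and SD (bars, n = 5). The groups overlap in all 12 panels, and the Nop58 and Nop10 panels have 1 vehicle library, replicate 2, within the oxaliplatin range.

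Several of these genes also carry snoRNAs in their introns, so that 1 transcript gives both a protein and a guide RNA. In GENCODE M21 (GRCm38), 27 snoRNA genes lie within the span of 7 members (Dkc1, Gnl3, Ncl, Nop56, Nop58, Taf1d and Wdr43). Of the box C/D class, Snord11, Snord70, Snord57 and Snord110 lie in the scaffold genes above. Of these only Snord11 and Snord110 hold both boxes in the letters sought, and they are shown for that reason. Box C (TGATGA) and box D (CTGA) are in capitals, and both snoRNAs are on strand +.
Snord11, in Nop58, chr1:59704790-59704873: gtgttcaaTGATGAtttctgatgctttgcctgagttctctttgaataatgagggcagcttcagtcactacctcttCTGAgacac
Snord110, in Nop56, chr2:130275506-130275573: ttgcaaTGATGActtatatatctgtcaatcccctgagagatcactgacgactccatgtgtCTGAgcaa
On their own strand, in the first 25 and last 20 bases, 68 of 98 genes named Snord in that annotation (69.4%) hold both boxes in exactly these letters. All 27 hosted snoRNA genes were in the count table, but none had more than 24 counts in any library and 8 had 0 in every library. Together they had 429 counts over the 5 oxaliplatin libraries and 317 over the 5 vehicle libraries, too few to follow single guide RNAs.

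The 10 small subunit factors lay closest to level, with a median log2 fold change of -0.01 (0.03 without the composition factor, with 2 of 10 below 0) and a range from -0.10 (Nob1) to 0.09 (Utp20). Nob1 codes for the nuclease that makes the end of mature 18S ribosomal RNA, and stood at 53.4 ± 3.26 CPM after oxaliplatin and 57.1 ± 3.77 CPM after vehicle (n = 5 each). Rrp9, a protein of the U3 snoRNP, was at 18.5 ± 1.31 and 18.5 ± 2.03 CPM, a log2 fold change that rounds to 0.00. Utp3, Utp6, Utp15, Utp20, Wdr43 and Nop14 belong to the processome that first folds the small subunit precursor, and lay between -0.06 (Utp15) and 0.09. Rrp12, which helps export, was at -0.02 ± 0.099, and the RNA helicase Ddx21 at 0.02 ± 0.093. None of the 10 had an unadjusted p below 0.05.

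All 8 large subunit factors lay below 0 (5 of 8 without the composition factor), with a median log2 fold change of -0.06 (-0.03 without it), and none passed the threshold. Nop16 had the lowest value. It was at 46.3, 55.9, 56.1, 46.2 and 53.5 CPM after oxaliplatin and at 55.0, 54.5, 61.3, 62.3 and 64.3 CPM after vehicle. Vehicle replicates 1 and 2 lay inside the oxaliplatin range and the other 3 above it (log2 fold change -0.21 ± 0.078, edgeR adjusted p = 0.194). Pes1, Bop1 and Wdr12 code for the PeBoW complex, which is needed to process the large subunit precursor. Pes1 was at 68.8, 70.8, 76.3, 65.3 and 61.3 CPM after oxaliplatin and at 77.2, 73.1, 74.5, 76.3 and 71.8 CPM after vehicle. All oxaliplatin libraries but replicate 3 were below every vehicle library (log2 fold change -0.12 ± 0.066, edgeR adjusted p = 0.371). Bop1 was at 65.0, 75.3, 57.1, 59.8 and 60.4 CPM after oxaliplatin and at 74.2, 69.8, 61.2, 66.9 and 75.8 CPM after vehicle. Oxaliplatin replicates 3, 4 and 5 lay below every vehicle library, while replicate 2 was near the top of the vehicle range (log2 fold change -0.13 ± 0.082, edgeR adjusted p = 0.463). Wdr12 was at -0.09 ± 0.074. The other 4 were Nop2, a methyltransferase of 28S ribosomal RNA (-0.04 ± 0.073), the GTPase nucleostemin, Gnl3 (-0.02 ± 0.074), Noc2l (-0.03 ± 0.18) and Rrp1 (-0.01 ± 0.061).

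The median log2 fold change rose with transcript length. By the longest coding transcript in GENCODE M21, the 8 members of up to 1500 bases had a median log2 fold change of -0.09, the 16 longer than that and up to 3000 bases -0.04 and the 16 over 3000 bases 0.02. Over the tested genes placed in the same bins, which were not all of them, the medians were -0.07 (2186 genes), -0.01 (5036) and 0.02 (8009). Below 0 were 75.0%, 93.8% and 37.5% of the members in these bins, beside 64.6%, 53.2% and 44.8% of the tested genes so placed. Which transcript was expressed was not tested. The longest in the last bin were those of Wdr12 (10012 bases), Nop58 (9507), Polr1a (9216), Utp20 (8821) and Ncl (8202). The part of transcript length in the members' values was not tested.

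The E-box was looked for because MYC is known to drive many genes of ribosome biogenesis through it. RefSeq promoter windows of 300 bases (GRCm38.p6) were at hand for 34 of the 40 members. The letters CACGTG, which read the same on both strands, were in 5 of these 34 (14.7%) and in 2187 of 27025 genes with a window (8.09%). They are printed with up to 12 bases on either side, the E-box in capitals and its first base counted from the start site.
Nop2, chr6:125131811-125131840, strand +, at -60: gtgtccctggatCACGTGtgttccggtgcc
Pes1, chr11:3963965-3963994, strand +, at 3: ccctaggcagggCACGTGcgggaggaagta
Rrn3, chr16:13780472-13780501, strand +, at -215: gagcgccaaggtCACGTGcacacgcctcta
Rrn3, chr16:13780639-13780668, strand +, at -48: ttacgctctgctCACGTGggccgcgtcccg
Utp20, chr10:88826765-88826789, strand -, at 38: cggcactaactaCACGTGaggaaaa
Wdr43, chr17:71616220-71616249, strand +, at 18: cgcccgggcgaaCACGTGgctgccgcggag
A match describes these letters only. The 5 genes had log2 fold changes of -0.04, -0.12, -0.02, 0.09 and 0.04, in the order Nop2, Pes1, Rrn3, Utp20 and Wdr43, and none had an unadjusted p below 0.05. Myc itself was at 22.8 ± 1.5 CPM after oxaliplatin and 26.1 ± 4.24 CPM after vehicle (n = 5 each, log2 fold change -0.19 ± 0.10, edgeR adjusted p = 0.356). Its highest library was vehicle replicate 5, at 33.4 CPM.

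Beyond the members, 188 further genes of the pathway, each counted once, were tested in 10 lists that share some genes. After oxaliplatin 3 rose and 0 fell (edgeR adjusted p below 0.05), beside 234 higher (1.27%) and 142 lower of all 18401 tested genes. At an unadjusted p below 0.05 there were 23 of the 188, beside 16.3% of all tested genes, 15 of the 23 higher and 8 lower. DESeq2 called 5, beside 5.47% of all genes, which added Tsc1 as higher and Akt1 as lower, a pair named after their values were seen. The largest lists held close to level. Of 38 other small subunit factors and 41 other large subunit factors none passed, and both medians were -0.03. Their smallest p values belonged to Nop9 (-0.42 ± 0.18, edgeR adjusted p = 0.242) and Nvl (0.20 ± 0.089, 0.281).

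The snoRNP assembly factors (10 genes, median -0.08, smallest p Naf1 at -0.62 ± 0.29) and the exosome with other nucleases of the precursor (15 genes, 0.02, Exosc10 at 0.22 ± 0.083) had no call. Neither had the subunits and factors of RNA polymerase III (20 genes, 0.01, Polr3g at -0.16 ± 0.067) or the noncoding snoRNA hosts (12 genes, 0.05, Snhg20 at 0.27 ± 0.12). RNA polymerase II subunits had a median of -0.12 (13 genes, 11 below 0), with no call and Polr2d at -0.19 ± 0.068. The other RNA polymerase I subunits and ribosomal DNA factors, 15 genes, had a median of -0.08 with 12 below 0. Polr2e, Polr2f, Polr2h, Polr2k and Polr2l, all below 0, are in both of these lists, so their medians are not separate. The RNA polymerase III list does not hold these shared subunits.

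The 1 call among those 15 was Top2a, a topoisomerase that works with RNA polymerase I and also marks dividing cells. Top2a rose from 0.557 ± 0.231 to 1.75 ± 1.10 CPM (n = 5 each), with a log2 fold change of 1.64 ± 0.39 (edgeR adjusted p = 0.0431). Oxaliplatin replicate 3, at 3.61 CPM, was the highest library, and replicate 1, at 0.762 CPM, lay inside the vehicle range of 0.340 to 0.918 CPM. With that highest library, oxaliplatin replicate 3, left out, Top2a was at 1.19 (adjusted p = 0.0894), and leaving out 1 library ended the call in 8 of 10 cases, all but oxaliplatin replicates 1 and 2. It did not pass in limma voom with quality weights (1.24, adjusted p = 0.0989) or with 1 surrogate variable (1.73, adjusted p = 0.0539). As given above, 3 of 14 markers of dividing cells were higher and 12 of 14 lay above 0, and Top2a was 1 of the 3. Higher at an unadjusted edgeR p below 0.05 were 7 of the 14, beside 8.51% of all tested genes. The part of such cells was not tested.

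Of 21 growth regulators of ribosomal DNA transcription, 1 rose, and the median was 0.10. At an unadjusted p below 0.05 there were 9 of the 21, beside 16.3% of all tested genes, 8 of them higher and 1, Akt1, lower. Ddit4, an inhibitor of mTORC1 signalling, had a log2 fold change of 0.69 ± 0.22 (edgeR adjusted p = 0.151) and was singled out with its values known. In limma voom it was past the threshold (0.71, adjusted p = 0.0485). The call was Mxd1 (ENSMUSG00000001156), whose protein pairs with MAX and opposes MYC at E-boxes. Mxd1 was at 6.31, 7.71, 8.00, 10.2 and 9.16 CPM after oxaliplatin and at 5.30, 6.21, 5.15, 5.97 and 5.00 CPM after vehicle. Every oxaliplatin library lay above every vehicle library. The log2 fold change came to 0.58 ± 0.14 (edgeR adjusted p = 0.0343). The call was lost when oxaliplatin replicate 3, 4 or 5 or vehicle replicate 1, 3, 4 or 5 was left out, with an adjusted p of up to 0.112, and with 1 surrogate variable (0.0567).

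The 5S RNP and p53 arm is the route by which free ribosomal proteins, mainly RPL5 and RPL11, bind MDM2 and spare p53 when assembly fails. Of its 12 genes 1 rose, Cdkn1a (ENSMUSG00000023067), which codes for the cell cycle inhibitor p21. Cdkn1a was at 231, 199, 192, 216 and 254 CPM after oxaliplatin and at 108, 99.9, 106, 109 and 172 CPM after vehicle. The groups did not overlap, and vehicle replicate 5 was the highest vehicle library. That gave a log2 fold change of 0.88 ± 0.15 (edgeR adjusted p = 0.0193). Leaving out vehicle replicate 5 gave an adjusted p of 3.63e-06. The call was lost, at an adjusted p of up to 0.0623, when oxaliplatin replicate 4, oxaliplatin replicate 5, vehicle replicate 1 or vehicle replicate 4 was left out. Mdm2 was at 0.03 ± 0.086 and Trp53 at 0.02 ± 0.063 (edgeR adjusted p = 0.908 and 0.931). Rpl5 and Rpl11 were at -0.09 ± 0.059 and -0.06 ± 0.070 (edgeR adjusted p = 0.499 and 0.713). The median of the 12 genes was 0.02, with 7 above 0 and 5 below. The cause of the rise in Cdkn1a was not tested.

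**Figure D4:**
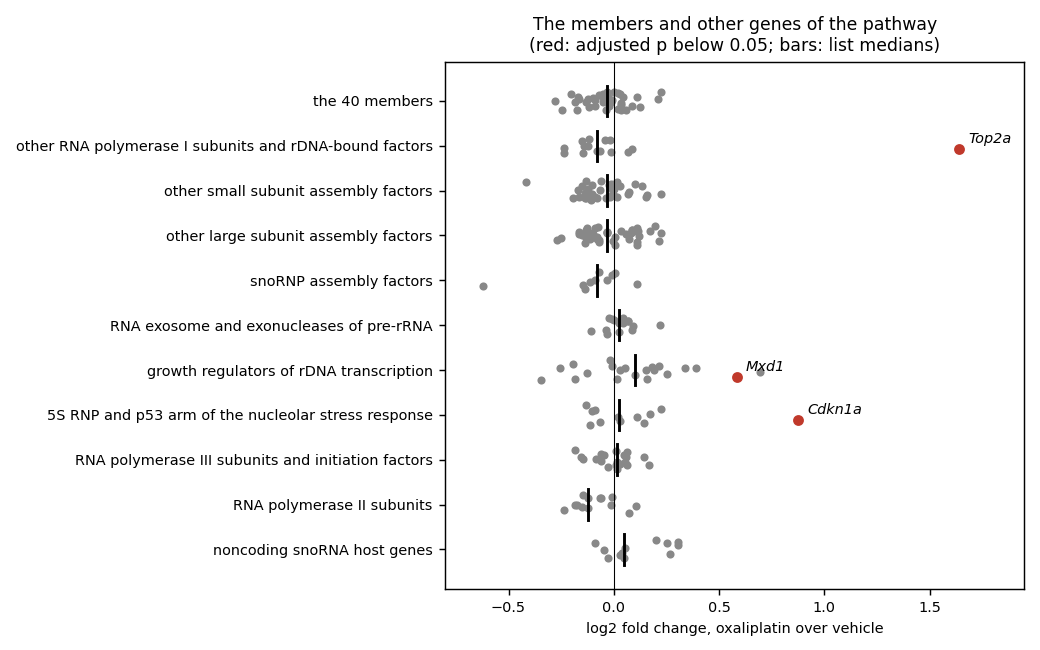
Log2 fold change (x axis) of the 40 members and of the tested genes of 10 other pathway lists (y axis), 1 point per gene in each list, with bars for list medians and red for adjusted p below 0.05. The red points are Top2a, Mxd1 and Cdkn1a, at 1.64, 0.58 and 0.88.

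The groups did not overlap for 6 of the 188 genes, beside 0 of 40 members and 4.02% of all tested genes. They were Mxd1, Cdkn1a, Nop9 and Polr2d, and, named after their values were seen, Nsa2 and Akt1. Nop9, Polr2d, Nsa2 and Akt1 were the lower ones, at -0.42, -0.19, -0.11 and -0.18 on the log2 scale, and none of these 4 passed the threshold.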

How the data were processed

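The deposited table holds raw counts of reads per Ensembl gene, whole numbers with 1 column for each of the 10 samples. The tools listed per the submitters' processing notes are Partek, DESeq2 and the aligner STAR (2.5.1a), without saying which made the counts. The counting step, genome build, annotation and strand are not given in the sources read, and genes that share sequence with a copy or overlap another gene are uncertain. Per the labels' protocols, bead-extracted RNA went into a SMARTer kit.

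Repeated lines (276, with the same counts) were dropped, and 26 gene names that a spreadsheet had turned into dates were recovered through their IDs. Differences were tested with edgeR 4.0.16 in R 4.3.3: filterByExpr, TMM factors, robust quasi-likelihood fits on all 10 libraries without covariates, Benjamini-Hochberg adjustment over 18401 genes and a threshold of 0.05. Intervals are 95%, for single genes. CPM uses TMM-scaled totals, and log2 CPM a prior count of 2. Libraries of a group were compared in pairs by chi-square, which per degree of freedom was at least 12.8 and at most 53.6, beyond sampling noise, and each counted as 1 replicate.

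The members, the lists and the rules were chosen with earlier results of these data known, and so were oxaliplatin replicate 1 and vehicle replicate 5 as a pair to leave out. Described in full are members past the threshold or without overlap (none) and, by smallest p, as many as bring the number to 12. From each other list come genes past the threshold, or else the 1 of smallest p, plus Myc, Mdm2, Trp53 and Cdkn1a. Gar1 and others with values beyond these are examples of their roles.

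Alternatives were RLE factors, no composition factor, no filter or a stricter one (1 CPM in 5 libraries), DESeq2 1.42.0, a block for the replicate number, limma 3.58.1 voom with quality weights, 1 surrogate variable (sva 3.50.0), calling at an adjusted p below 0.1, and leaving out libraries. Promoter windows came from RefSeq (GRCm38.p6), and snoRNAs and transcript lengths from GENCODE M21. Whether these match the authors' build is not known, and the windows were matched by gene symbol.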

Additional observations from a re-analysis of the deposited data

Results flagged for a closer look

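In 5 of 80 groups of 5 libraries (40 members, each in both groups) the end library stood apart, its gap to the next library taking more than 0.71 of the group's range. Chance gives about 1 in 20 such groups. Nop58 in vehicle replicate 2 was at 36.7 CPM, where the other 4 vehicle libraries were at 41.0 to 42.3 CPM. Vehicle replicate 5 had Taf1b at 19.6 CPM (24.5 to 26.2 in the others) and Ddx21 at 16.9 CPM (13.8 to 14.4). Oxaliplatin replicate 4 had Nop14 at 33.1 CPM (27.1 to 28.1 in the others) and Nob1 at 47.8 CPM (53.8 to 56.0).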

How the results depend on the processing

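No member was called higher under any alternative run. Lower members, 0 in the report, numbered 2 with DESeq2 (Nop10 and Nop58), 1 each without the filter on low counts, at an adjusted p below 0.1 and with the replicate block (Nop10 each time), 1 with voom (Nop58), and 0 to 1 when 1 library was left out. With the replicate block Nop10 was at -0.27 (adjusted p = 0.0298). The replicate numbers were not taken as pairs because the labels do not say that they pair animals. Same-numbered libraries had correlations of their deviations from -0.082 to 0.477, and 5 of 10 libraries correlated best with their own number. Replicates 3 and 5 had the highest values, at 0.477 and 0.353 with their own number. Between different numbers the highest was 0.198 (oxaliplatin replicate 4 with vehicle replicate 1). What same-numbered libraries share was not tested. Other pathway genes higher, 3 in the report, were 4 with the replicate block, which lost Top2a (1.51, adjusted p = 0.0599) and added Ddit4 (0.66, adjusted p = 0.00186) and Maf1 (0.25, adjusted p = 0.0482, singled out with its values known), 3 with voom, which lost Top2a and added Ddit4, 1 with 1 surrogate variable (Cdkn1a) and 0 to 4 with 1 library left out. Lower ones, 0 in the report, were 1 with DESeq2 and 1 with voom, Akt1 in both. Over all genes, 234 higher and 142 lower became 521 and 406 with DESeq2, 439 and 342 with voom, 382 and 278 with the replicate block, 424 and 304 at an adjusted p below 0.1, and 142 and 76 when oxaliplatin replicate 1 and vehicle replicate 5 were both left out. With 1 library left out they ran from 79 (without oxaliplatin replicate 4) to 343 (without oxaliplatin replicate 2) higher and from 34 to 251 lower. The median log2 fold change of the members ran from -0.04 to -0.02 with 1 library left out and was 0.0037 without the composition factor. That of the RNA polymerase I subunits ran from -0.086 to 0.00047, and that of the initiation factors from -0.030 to 0.073, and was -0.019 without both libraries. Mdm2 ran from -0.015 (without vehicle replicate 3; -0.0057 without oxaliplatin replicate 2) to 0.059 and Trp53 from -0.024 (without oxaliplatin replicate 2) to 0.051, so both crossed 0. The stricter filter left Top2a untested. The cause of these changes was not tested, beyond the smaller number of samples when libraries are left out. Every member had 117 counts or more in each library.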
